A study of Arabidopsis thaliana with 12 samples.

Results

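Whole Arabidopsis thaliana seedlings carrying an RNA interference construct against MARS (AT5G00580), a long non-coding RNA, called RNAi-MARS, were compared with the wild type Col-0 4 h after a spray with abscisic acid (ABA). The comparison takes 6 of the 12 libraries of the series, 3 for each genotype, named by their replicate letters A, B and C. All 69383 features of the deposited tables enter it, and 22465 of them held enough counts to be tested. Seedlings of both genotypes were 12 days old and had been grown on MS/2 medium with sucrose in long days, and both were sprayed with ABA at 10 µM in water. The other 6 libraries are the same genotypes collected before the spray, and they are used here to show where the difference after ABA stood before it. The series has no group that was left unsprayed for 4 h. The series text calls the plants RNAI-MARS-1 lines, and the promoter of the construct, the number of independent lines and the hour of harvest are not given in the sources used. The labels do not state whether replicates were grown as separate cultures. A p-value here therefore reflects how much these libraries vary, and that variation may be technical.

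MARS is transcribed from the marneral cluster on chromosome 5, a group of neighbouring genes for a triterpene made in roots. The cluster holds MRN1, the marneral synthase, and the cytochrome P450 genes CYP705A12 and CYP71A16. ABA is the hormone of drought and seed dormancy: PYR/PYL receptors that bind it block clade A protein phosphatases, which releases SnRK2 kinases to act on transcription factors. The series asks how lowering MARS alters the response to ABA.

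The 6 libraries after ABA held 19020202 to 38787804 counts. Replicates of a genotype correlated at 0.969 to 0.984 in log2 CPM (counts scaled to library size with TMM factors), and no pair of replicates was so close as to be 1 library deposited more than once. On principal components of the 6 libraries the first held 34.3% of the variance and mixed the genotypes. Nuclear photosynthesis genes, root markers (18 of 19 tested) and guard cell markers (6 of 6 tested) were present, whereas the 10 seed storage genes summed to 0.311 to 1.01 CPM. The 6 floral organ genes summed to 5.62 to 11.2 CPM and were not all absent. Of them 3 were tested, and SEP3 alone stood at 4.45 to 10.3 CPM. Library C of Col-0 and library B of RNAi-MARS stood apart from the others of their genotype. Library B of RNAi-MARS was farthest out on the first component (45.9, against 33.0 for library C of Col-0), had the lowest limma sample weight of the 6 (0.483, against 0.586 for library C of Col-0) and had the lowest replicate correlation, with library C of RNAi-MARS. In library C of Col-0 24 heat shock genes summed to 999.7 CPM, against 634 and 510 CPM in libraries A and B of Col-0 and 489 to 535 CPM in RNAi-MARS. Its 21 touch and early stress genes summed to 833 CPM, against 413 and 400 CPM in libraries A and B of Col-0 and 447 to 598 CPM in RNAi-MARS. BIP3, a chaperone of the endoplasmic reticulum, stood at 48.0 CPM in that library and at 0.242 to 4.58 CPM in the other 5. For some of the results that move when one of these libraries is left out, the value without that library is given beside them. A result given without such a value is not thereby shown to be stable.

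MARS, the targeted RNA, lies at chr5:17045300-17047240 on the plus strand (coordinates here and below are of TAIR10.1). It stood at 21.3, 9.09 and 20.1 CPM in libraries A, B and C of Col-0 and at 2.303, 1.34 and 4.11 CPM in those of RNAi-MARS. Every RNAi-MARS library was below every Col-0 library, in the direction of the labels. The log2 difference was -2.74 ± 0.77 (SE), and with an edgeR adjusted p of 0.477 it was not called, a call being an adjusted p under 0.05 over all 22465 features. Before ABA the levels were 6.63, 2.60 and 0.344 CPM in Col-0 and 0.156 to 0.196 CPM in RNAi-MARS. A transcript of the construct that matches MARS would be counted with it.

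The 3 protein-coding genes of the marneral cluster showed no difference that exceeded the spread between libraries. MRN1 stood at 31.03, 2.44 and 22.4 CPM in Col-0 and at 40.4, 61.8 and 30.5 CPM in RNAi-MARS, a log2 difference of 1.24 ± 1.00. Library B of Col-0 was low for it and library B of RNAi-MARS high, and the groups overlapped. CYP71A16 stood at 11.9, 5.97 and 7.13 CPM in Col-0 and 9.76, 22.4 and 10.4 CPM in RNAi-MARS (0.77 ± 0.71). CYP705A12 stood at 22.4, 5.19 and 9.65 CPM in Col-0 and 12.8, 20.5 and 6.96 CPM in RNAi-MARS (0.11 ± 0.84). The spread of MRN1 alone shows what the design can see here: with an SE of 1.00 on the log2 scale, a change in this gene was not detectable unless it was several-fold. Of 33 tested genes within 100 kb of MARS, 0 were called, and 3 had an unadjusted p under 0.05, a share close to the 8.82% of all features. They were BKI1, an inhibitor of the brassinosteroid receptor (0.45), SPP (-0.36) and AT5G42740 (-0.23).

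Across all features the genotypes differed in 20 after ABA, which is 0.089% of those tested. Of these, 18 were lower in RNAi-MARS (0.0801% of features) and 2 were higher (0.0089%). A single segment of chromosome 1 holds 17 of the 18 lower features. The remaining lower feature is AT4G34480, and the 2 higher ones are QQS and MAF5. The 20 features called before ABA were the same 20. The median log2 difference of all features was -0.01, and the range from the 5th to the 95th percentile was -0.45 to 0.50. An unadjusted p under 0.05 was reached by 1981 features (8.82%), 917 higher and 1064 lower in RNAi-MARS, against 973 (4.33%) before ABA, of which 1.61% of features were higher and 2.72% lower. The features with such a p before and after numbered 187, which is 9.44% of those after ABA and 19.2% of those before it. Of these 187, 153 differed in the same direction at both times and 34 in opposite directions. The groups did not overlap for 1331 features with RNAi-MARS above (5.92%) and 1305 with RNAi-MARS below (5.81%). Without library C of Col-0 the count of calls was 55, of which 19 were among the 20, and without library A of Col-0 it was 13. With DESeq2 it was 77, of which 13 were among the 20, while the other 7 had no adjusted p from DESeq2.

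**Figure D1:**
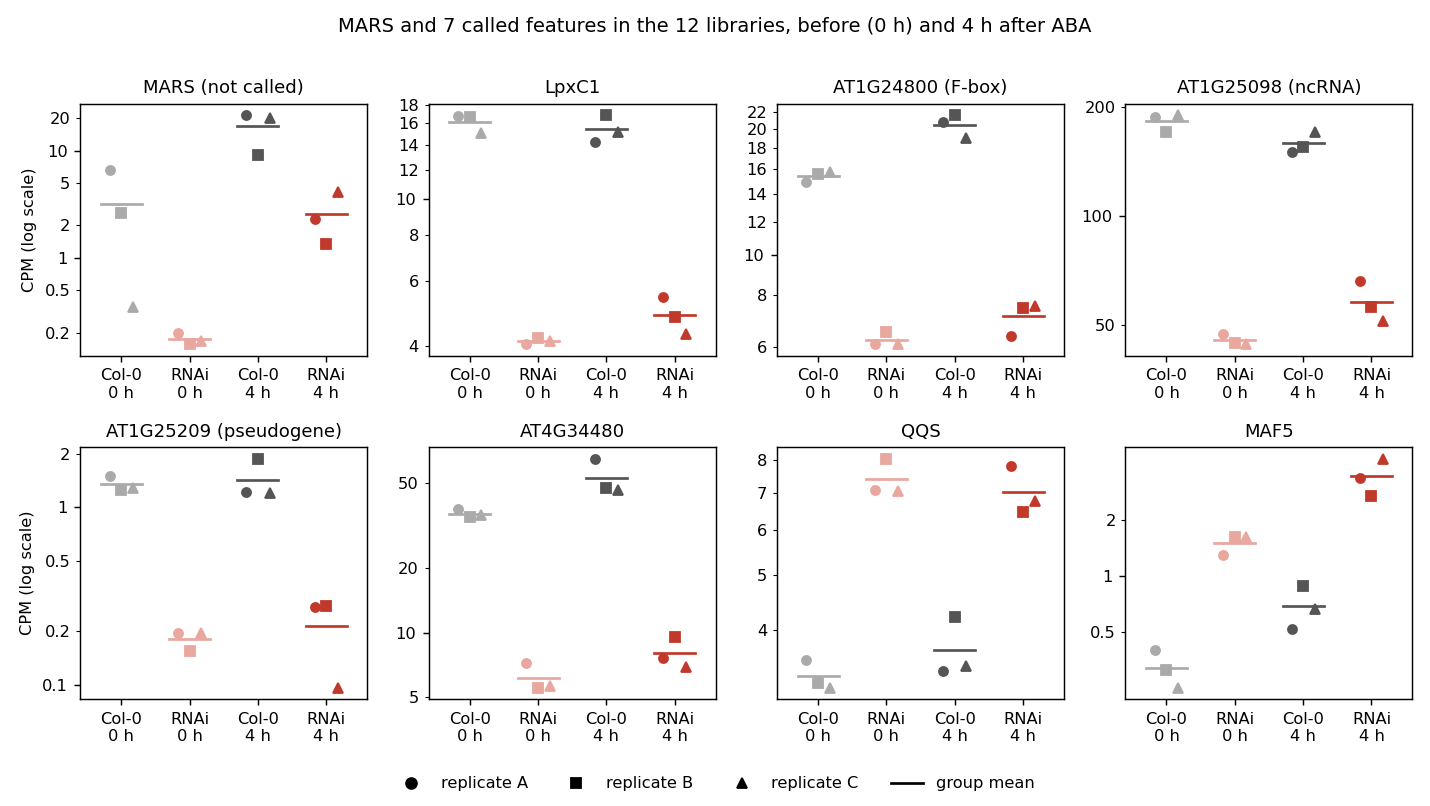
CPM on log axes of MARS and of 7 of the 20 called features in the 12 libraries, with 1 point per library, marker shape for the replicate letter and a line at the group mean. The RNAi-MARS libraries lie below all Col-0 libraries of the same time for MARS, LpxC1, the F-box gene, the non-coding RNA, the pseudogene and AT4G34480, and above them for QQS and MAF5.

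The segment on chromosome 1, chr1:8765614-8837007, spans 71.4 kb from the first to the last called gene. It is made of repeated blocks that hold the LpxC genes, which encode the deacetylase of the lipid A-like glycolipid pathway, F-box protein genes, which encode substrate receptors of ubiquitin ligases, glutamine amidotransferase genes, non-coding RNAs and pseudogenes. Of its 31 annotated genes 23 were tested, and 17 were called lower, with a median log2 difference of -1.67. The 36 tested genes within 100 kb on both sides held 0 calls, with a median of 0.04 and a range of -0.99 to 0.43. The ends of the segment were placed at the outermost calls. The lack of calls beside them is therefore not separate evidence of where the difference stops. Summed over its 23 tested genes, the segment stood at 616, 648 and 669 CPM in Col-0 and at 261, 237 and 215 CPM in RNAi-MARS. The genotypes did not overlap, and the sum was 2.71-fold lower in RNAi-MARS (log2 difference -1.44 ± 0.10, edgeR adjusted p = 9.29e-05). The segment was bounded by genes called in this same comparison, so the p of the sum is not support separate from those calls. With the segment counted as 1 feature the comparison had 3 calls, the segment, AT4G34480 and MAF5.

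The copies are near-identical, and the authors' counts divide reads between them, so the 17 calls are not 17 separate measurements. The coding sequences of LpxC1, LpxC3, LpxC4 and LpxC5, 981 bases each, had 0 differences from one another. Those of the F-box genes AT1G24800, AT1G24881, AT1G25055 and AT1G25150, 1302 bases each, also had 0 differences, and AT1G25211 differed from them at 2 positions, A351G and C1053T, counted from 1 at the start codon of AT1G24800. LpxC2 was compared by its whole gene span of 2172 bases. That span matched the long non-coding RNA AT1G25098 at 99.9%, with 2 differences. With the 2010-base span of LpxC1 it had 978 differences (51.3%). The coding sequence of LpxC2 was not compared, so 51.3% is no measure of shared coding bases. The lines below give a short stretch from each set of copies. Those of LpxC1 and LpxC2 come from different parts of the genes, so they cannot be set against each other. A read over the marked base can tell AT1G25211 from the other F-box genes, while no coding read can tell those 4 genes apart. The lines give 61 coding bases around position 351 of AT1G24800 (chr1:8770061-8770121, plus strand) and of AT1G25211 (chr1:8835725-8835785, plus strand), the first 60 coding bases of LpxC1 (chr1:8767581-8767640, plus strand), and 60 bases from inside LpxC2 (chr1:8776501-8776560, plus strand). The capital marks the base at which AT1G25211 differs.
AT1G24800: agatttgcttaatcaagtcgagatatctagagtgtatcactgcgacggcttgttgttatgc
AT1G25211: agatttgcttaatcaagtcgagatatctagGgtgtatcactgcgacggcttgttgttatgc
LpxC1: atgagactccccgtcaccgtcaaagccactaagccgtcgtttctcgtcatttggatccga
LpxC2: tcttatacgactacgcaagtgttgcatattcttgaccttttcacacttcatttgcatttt
AT1G24881, AT1G25055 and AT1G25150 hold the same 61 bases as AT1G24800. LpxC3, LpxC4 and LpxC5 hold the same 60 as LpxC1, and AT1G25098 and AT1G25175 the same 60 as LpxC2.

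By role, the members of the segment gave 4 sets of values. LpxC1, and with it LpxC3, LpxC4 and LpxC5, stood at 14.3, 16.8 and 15.2 CPM in Col-0 and 5.43, 4.79 and 4.30 CPM in RNAi-MARS, a log2 difference of -1.67 ± 0.11 (edgeR adjusted p = 1.29e-05). The F-box gene AT1G24800 stood at 20.8, 21.6 and 19.1 CPM in Col-0 and 6.39, 7.46 and 7.54 CPM in RNAi-MARS (-1.52 ± 0.09, adjusted p = 1.07e-05), and AT1G25211 differed by -1.32 ± 0.09. The non-coding RNA AT1G25098 stood at 150.3, 155 and 171 CPM in Col-0 and 66.2, 56.2 and 51.3 CPM in RNAi-MARS (-1.45 ± 0.10, adjusted p = 2.34e-05). For each of these sets all RNAi-MARS libraries were below all Col-0 libraries by a wide margin. LpxC2 (-1.48 ± 0.11) and the second non-coding RNA AT1G25175 (-1.45 ± 0.10) are near-identical to AT1G25098, so their differences are not separate. LpxC1, LpxC2, AT1G24800, AT1G25150, AT1G25211, AT1G25098 and AT1G25175 also overlap other annotated genes.

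The pseudogenes AT1G24792, AT1G24879, AT1G25053 and AT1G25209 and the F-box associated gene AT1G25141 had the largest log2 differences of the segment, -2.37 to -2.61. They had low counts. AT1G25209 stood at 1.21, 1.87 and 1.195 CPM in Col-0 and 0.275, 0.276 and 0.0966 CPM in RNAi-MARS, and the calls of these 5 genes were lost in 6 to 12 of the alternatives run. Of the 6 tested genes that were not called, AT1G24851 and AT1G25180, both uncharacterized, were low in counts and lower in every RNAi-MARS library (-1.76 ± 0.35 and -1.80 ± 0.35). The glutamine amidotransferase copies AT1G24807, AT1G24909, AT1G25083 and AT1G25155 behaved otherwise. AT1G24807 stood at 1.90, 2.55 and 2.57 CPM in Col-0 and 2.78, 3.52 and 2.46 CPM in RNAi-MARS, with overlapping groups (0.33 ± 0.19), and the other three copies were at 0.32 to 0.33. AT1G24807, AT1G24909 and AT1G25155 had the same CPM in every library, so these copies are not separate measurements. The copies lie between called neighbours, and as a set they were not lower in RNAi-MARS.

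The genotype difference of the segment was also present before ABA. The sum stood at 688 ± 29.3 CPM (SD, n = 3) in Col-0 and 190 ± 4.06 CPM in RNAi-MARS at that time (log2 difference -1.86 ± 0.10), and at 645 ± 26.6 and 238 ± 23.1 CPM after it. Within RNAi-MARS the sum was 0.32 ± 0.10 higher on the log2 scale after ABA than before it (edgeR adjusted p = 0.0179, where 42.6% of all features were called for ABA), and within Col-0 it differed by -0.10 ± 0.10 (adjusted p = 0.46, where 40% were called). The difference between the genotype differences, 0.42 ± 0.14, had an unadjusted p of 0.00987 in edgeR and an adjusted p of 0.948, so it was not called. For the F-box gene AT1G24800 the difference was -1.52 after ABA and -1.30 before it.

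AT4G34480 (chr4:16480887-16484231, minus strand) encodes a glycosyl hydrolase of family 17, the family of the glucanases that cut cell wall and callose glucans. It stood at 64.7, 47.5 and 46.5 CPM in Col-0 and at 7.63, 9.56 and 6.96 CPM in RNAi-MARS. All 3 RNAi-MARS libraries were far below the lowest Col-0 library. The log2 difference was -2.71 ± 0.16 (edgeR adjusted p = 1.07e-05), and the call held in all 17 alternatives run. Before ABA the difference was -2.54, from 34.6 to 37.6 CPM in Col-0 and 5.55 to 7.21 CPM in RNAi-MARS. Of the 10 tested genes within 20 kb of it 0 were called, with a median of 0.01. AT4G34550, an F-box protein gene among them, was at -1.57 ± 0.67 with overlapping groups. AGB1, the beta subunit of the heterotrimeric G protein, was at 0.30 ± 0.09 with RNAi-MARS above Col-0 in all libraries.

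QQS (chr3:12349047-12349933, plus strand) is an orphan gene whose product alters the partition of carbon and nitrogen between starch and protein. It stood at 3.39, 4.21 and 3.45 CPM in Col-0 and at 7.80, 6.47 and 6.76 CPM in RNAi-MARS. The groups did not overlap, and the log2 difference of 0.93 ± 0.14 was called at an edgeR adjusted p of 0.0302. The call was lost in 9 of the 16 alternatives that gave it a value, with adjusted p-values up to 0.665, and without libraries A or C of Col-0 or any 1 library of RNAi-MARS it did not pass. Before ABA the levels were 3.16 to 3.54 CPM in Col-0 and 7.05 to 8.04 CPM in RNAi-MARS (1.16). In these libraries QQS was thus near its level before ABA in both genotypes.

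MAF5 (chr5:25997504-26002619, plus strand) belongs to the MADS-box family of FLC, the repressor of flowering, and its relatives MAF1 to MAF5 delay flowering to different degrees. MAF5 stood at 0.518, 0.883 and 0.664 CPM in Col-0 and at 3.33, 2.67 and 4.25 CPM in RNAi-MARS. These CPM are 15, 17 and 15 counts in Col-0 and 97, 116 and 88 in RNAi-MARS. All RNAi-MARS libraries were above all Col-0 libraries, and the log2 difference was 2.32 ± 0.28 (edgeR adjusted p = 0.00478). The call was lost without library A of Col-0 and in the fit to the 6 libraries alone, with adjusted p-values up to 0.132 over the alternatives. Before ABA the difference was 2.24, from 0.250 to 0.399 CPM in Col-0 and 1.29 to 1.62 CPM in RNAi-MARS.

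The other members of the family, of which MAF2 (AGL31), MAF3 and MAF4 are direct neighbours of MAF5, were not called. MAF2 stood at 42.7, 45.2 and 50.8 CPM in Col-0 and at 62.8, 55.4 and 55.2 CPM in RNAi-MARS (0.32 ± 0.08). MAF3 stood at 13.3, 14.9 and 18.6 CPM in Col-0 and at 22.8, 20.7 and 22.5 CPM in RNAi-MARS (0.50 ± 0.13). MAF4 stood at 1.45, 1.56 and 1.73 CPM in Col-0 and at 2.54, 2.096 and 2.90 CPM in RNAi-MARS (0.66 ± 0.24). For MAF2, MAF3 and MAF4, and for MAF1 on chromosome 1 (0.26 ± 0.08), every RNAi-MARS library was above every Col-0 library, an arrangement that 5.92% of all tested features had. FLC overlapped between the groups, at 4.91, 7.90 and 3.01 CPM in Col-0 and 4.92, 5.97 and 7.29 CPM in RNAi-MARS (0.20 ± 0.34). Before ABA the log2 differences of MAF1, MAF2 and MAF3 were 0.01, 0.01 and 0.17 and that of MAF4 0.82. No test of the difference between before and after was called for them, with unadjusted p-values in edgeR of 0.0225 for MAF2, 0.0424 for MAF1, 0.089 for MAF3 and 0.652 for MAF4.

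**Figure D2:**
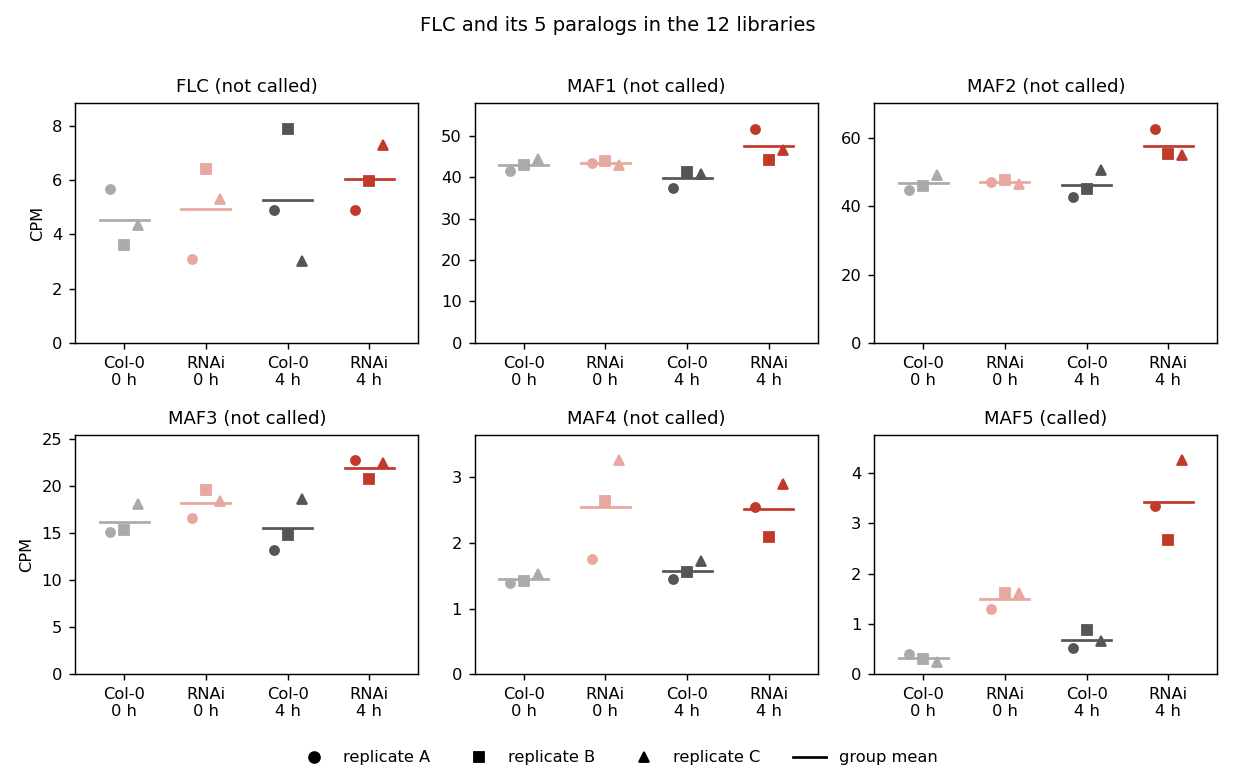
CPM of FLC and its 5 paralogs in the 12 libraries, before (0 h) and 4 h after ABA, with 1 point per library and a line at the group mean. At 4 h the RNAi-MARS libraries lie above all Col-0 libraries for MAF1 to MAF5 and overlap them for FLC, and only MAF5 was called.

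Of 15 tested genes of the flowering list, which includes this family, 1 was called (MAF5), 8 had all RNAi-MARS libraries above Col-0, against 5.92% of all features, and 6 had an unadjusted p under 0.05 with RNAi-MARS higher, against 4.08%. The list's median was 0.26, against -0.01 over all features. FD, the partner of florigen at the shoot apex, stood at 2.83, 2.44 and 2.08 CPM in Col-0 and 4.74, 5.87 and 2.90 CPM in RNAi-MARS (0.88 ± 0.29). FT, florigen itself, stood at 0.760, 1.35 and 1.42 CPM in Col-0 and 0.447, 0.276 and 0.918 CPM in RNAi-MARS, with overlapping groups (-1.16 ± 0.49). SOC1 (AGL20), a promoter of flowering downstream of FT, was at 0.33 ± 0.16.

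Next to the called features stood 20 genes with the smallest p among those not called, 10 in each direction, at a mean of at least 5 CPM and with groups that did not overlap. Their edgeR adjusted p-values were 0.12 to 0.414, and DESeq2 called 19 of them. LHY, a morning repressor of the circadian clock, stood at 10.96, 10.3 and 13.6 CPM in Col-0 and at 16.3, 23.5 and 18.0 CPM in RNAi-MARS (0.73 ± 0.15). NRPB10, a small subunit of the RNA polymerases, stood at 15.5, 19.2 and 17.9 CPM in Col-0 and at 24.5, 22.99 and 26.3 CPM in RNAi-MARS (0.49 ± 0.09). DEAR2, a repressor of the DREB family, stood at 5.98, 5.19 and 5.89 CPM in Col-0 and at 8.04, 7.55 and 8.79 CPM in RNAi-MARS (0.51 ± 0.10). All 3 are higher in every RNAi-MARS library, which the choice of genes required. The other 7 in this direction were the small GTPase gene RABC2A (0.38), the kelch repeat gene AT2G44130 (0.64), AT2G04690 (0.45), AT1G53400 (0.43), AT1G33230 (0.33) and the non-coding RNAs AT1G11175 (0.48) and AT5G24735 (0.33).

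In the other direction EMB1030, an alanyl-tRNA synthetase, stood at 92.3, 80.2 and 81.3 CPM in Col-0 and at 62.5, 53.1 and 61.8 CPM in RNAi-MARS (-0.52 ± 0.09). CMT3, the methyltransferase that maintains CHG methylation of DNA, stood at 19.2, 20.4 and 19.4 CPM in Col-0 and at 14.5, 13.8 and 16.2 CPM in RNAi-MARS (-0.41 ± 0.08). SS2 (AT3G01180), a starch synthase, stood at 88.9, 75.4 and 68.7 CPM in Col-0 and at 59.99, 52.8 and 52.4 CPM in RNAi-MARS (-0.50 ± 0.10). Each of these was lower in every RNAi-MARS library, without a call. In edgeR fits SS2 was called without library C of Col-0 (-0.58, adjusted p = 0.0435) and ADT1 without library A of RNAi-MARS (-0.56, adjusted p = 0.026). The remaining genes were the RING-type AT2G47560 (-0.82), Hsp70-15, a chaperone (-0.59), TUA2, an alpha-tubulin (-0.47), ADT1, an arogenate dehydratase of phenylalanine synthesis (-0.44), TBL35 (-0.42), SHM4, a cytosolic serine hydroxymethyltransferase (-0.41), and NADK2, the chloroplast NAD kinase (-0.40). Before ABA the 20 genes were at -0.23 to 0.18. They were chosen on their values after ABA, so this is a description, and 0 of them were called in the test of the difference between after and before.

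**Figure D3:**
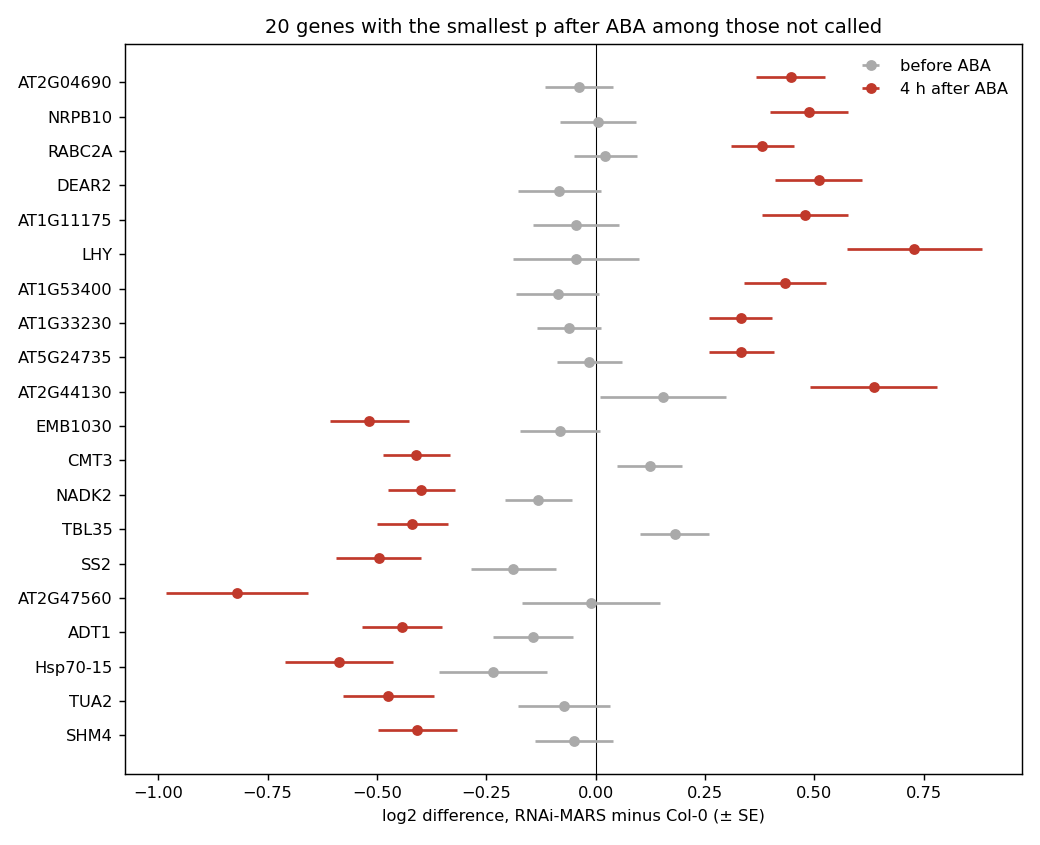
Log2 difference between RNAi-MARS and Col-0, with its SE, before ABA in grey and after ABA in red, for the 20 genes with the smallest p after ABA among those not called. After ABA the 10 higher genes lie between 0.33 and 0.73 and the 10 lower ones between -0.40 and -0.82, and the choice of genes used these values.

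In the ABA pathway no gene was called. Of 27 ABA response markers, all of them tested, 1 had an unadjusted p under 0.05 with RNAi-MARS higher, against 4.08% of all features (NAC3, AT3G15500, a transcription factor, 0.64 ± 0.27), and the median was 0.07. Without library C of Col-0 the count was 3, against 6.85% of all features in that fit. The marker genes summed to 11304, 11789 and 10317 CPM in Col-0 and to 10418, 11170 and 13611 CPM in RNAi-MARS. Library C of RNAi-MARS was highest, and the other 5 libraries were mixed between the genotypes. Before ABA the median of the same 27 genes was -0.46. MAPKKK18, a kinase gene induced by ABA, stood at 14.5, 11.7 and 20.8 CPM in Col-0 and 16.9, 28.7 and 24.3 CPM in RNAi-MARS, with overlapping groups. The 9 clade A phosphatases held 0 calls and 0 genes with an unadjusted p under 0.05, with a median of -0.06 after ABA and -0.45 before it. Their largest differences by p were ABI1 (-0.15 ± 0.16) and HAB1 (-0.16 ± 0.18).

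Of 9 tested PYR/PYL receptors 0 were called and 2 had an unadjusted p under 0.05, both with RNAi-MARS above Col-0 in all libraries, against 4.08% of all features at such a p and 5.92% with that order. PYR1 stood at 33.7, 34.9 and 34.9 CPM in Col-0 and at 39.8, 38.3 and 40.9 CPM in RNAi-MARS (0.20 ± 0.07). PYL7 stood at 19.6, 20.9 and 21.4 CPM in Col-0 and at 26.0, 24.1 and 22.2 CPM in RNAi-MARS (0.22 ± 0.09). The receptor list had a median of 0.20, and leaving out each library in turn moved it between 0.17 and 0.24. Downstream of the receptors 8 genes for kinases and transcription factors were tested, of which the kinase gene SNRK2.3 was at 0.27 ± 0.10 and the factor gene ABF1 at 0.16 ± 0.08. Of 12 tested genes of ABA synthesis and breakdown 0 were called and 3 had an unadjusted p under 0.05, all lower, against 4.74% of all features. ABA1, zeaxanthin epoxidase, stood at 595, 498 and 446 CPM in Col-0 and at 394, 361 and 428 CPM in RNAi-MARS (-0.38 ± 0.13), and before ABA its difference was also -0.38. AAO3, the oxidase of the last step, stood at 51.6, 50.8 and 79.2 CPM in Col-0 and at 36.5, 49.1 and 39.7 CPM in RNAi-MARS (-0.53 ± 0.17). The third was NCED9, at under 1 CPM in every library. Without library C of Col-0 the list had 1 lower and 1 higher gene with such a p, against 6.13% and 6.85% of all features.

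Of 18 tested genes of starch metabolism 1 was called, QQS. Of the 18, 7 had an unadjusted p under 0.05 with RNAi-MARS lower, against 4.74% of all features, 6 had all RNAi-MARS libraries below Col-0, against 5.81%, and the median was -0.15. AMY3, a chloroplast alpha-amylase, stood at 169, 144 and 144 CPM in Col-0 and at 118, 88.1 and 119.8 CPM in RNAi-MARS (-0.49 ± 0.12). SS4, the starch synthase that starts granules, stood at 106, 90.2 and 77.5 CPM in Col-0 and 71.7, 58.2 and 69.9 CPM in RNAi-MARS (-0.46 ± 0.12). The other 5 were SEX1 (-0.42) and PWD (AT5G26570, -0.32), which phosphorylate starch for breakdown, DPE2 (-0.38), a glucanotransferase of maltose use, ADG1 (-0.37), the small subunit of ADP-glucose pyrophosphorylase, and PGM (AT5G51820, -0.36), the plastid phosphoglucomutase. The 7 genes come from both synthesis and breakdown. Leaving out each library in turn gave 4 to 8 such genes in the list, the fewest when library A of Col-0 was left out, where 2.33% of all features were lower at such a p. Before ABA the list's median was -0.08.

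The nuclear photosynthesis genes were below 0 in 40 of 41 cases, with a median of -0.17, against 0.02 before ABA. They summed to 134995, 126126 and 123723 CPM in Col-0 and to 132247, 89062 and 122327 CPM in RNAi-MARS. Library B of RNAi-MARS was the low one, and the groups overlapped. Without it the median was -0.02, and without library A of RNAi-MARS it was -0.28, with 11 genes lower at an unadjusted p under 0.05, against 6.22% of all features in that fit. RCA, rubisco activase, was the 1 member with an unadjusted p under 0.05 with all 6 libraries (4.74% of all features were lower at such a p), at 6274, 4495 and 4497 CPM in Col-0 and 4019, 2707 and 3575 CPM in RNAi-MARS (-0.57 ± 0.18). The same library B was high for phosphate starvation genes. All 12 of these were above 0, with a median of 0.60 that was 0.06 without that library, and IPS1, a phosphate starvation RNA, spanned 0.138 to 4.52 CPM in Col-0 and 0.580 to 50.7 CPM in RNAi-MARS.

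The jasmonate genes had positive differences in most members. Of 20 tested genes of jasmonate signalling and response 0 were called, 18 were above 0, 7 had all RNAi-MARS libraries above Col-0, against 5.92% of all features, and 6 had an unadjusted p under 0.05, against 4.08%. The median was 0.44, against -0.06 before ABA. JAZ8, a repressor of jasmonate signalling, stood at 0.138, 0.0519 and 0.487 CPM in Col-0 and at 0.722, 0.921 and 0.918 CPM in RNAi-MARS (1.89 ± 0.53). THI2.1, a thionin, stood at 0.346, 0.468 and 0.575 CPM in Col-0 and 1.58, 2.303 and 0.580 CPM in RNAi-MARS (1.72 ± 0.53). ST2A, a sulfotransferase of hydroxyjasmonate, stood at 19.98, 61.7 and 85.3 CPM in Col-0 and at 120, 106 and 115 CPM in RNAi-MARS (1.03 ± 0.40). For JAZ8 and ST2A library C of Col-0 was the closest of the Col-0 libraries to RNAi-MARS. The other 3 with such a p were CYP94C1, an enzyme of jasmonate turnover (0.79), JAZ6 (0.31) and JAZ3 (0.31). The storage protein genes VSP1 and VSP2 overlapped widely (0.55 ± 0.64 and 0.61 ± 0.74). Without library C of Col-0 the median was 0.68, and 12 genes were higher at an unadjusted p under 0.05, against 6.85% of all features in that fit. JAZ8 (3.01, adjusted p = 0.0435) and JAZ10, another repressor (1.98, adjusted p = 0.0271), were called in that fit by edgeR. With all 6 libraries JAZ10 was at 0.90, and library C of Col-0, at 15.8 CPM, lay among the RNAi-MARS libraries, at 10.6 to 17.8 CPM. Without library B of RNAi-MARS the median was 0.40 with 2 genes, against 4.96% of all features. The 11 jasmonate synthesis genes had a median of 0.30, with 0 calls and 0 genes at an unadjusted p under 0.05. Without library C of Col-0 the median was 0.47 with 5 such genes, all higher, against 6.85% of all features in that fit. LOX3, a lipoxygenase, was at 1.01 ± 0.51 and JAR1, which makes the active conjugate of jasmonate, at 0.35 ± 0.20, both with overlapping groups.

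The medians of the heat shock and touch lists changed sign when library C of Col-0 was left out. The 23 tested heat shock genes had a median of -0.19. At an unadjusted p under 0.05, 3 were lower, against 4.74% of all features. Without library C of Col-0 the median was 0.29, with 8 higher and 2 lower, against 6.85% and 6.13% of all features in that fit. Without library B of Col-0 there were 5 lower. In that fit 1681 of 22862 features had such a p in either direction. ROF2 (AT5G48570), a co-chaperone of the FKBP family, stood at 29.0, 18.18 and 51.5 CPM in Col-0 and at 16.7, 16.4 and 17.1 CPM in RNAi-MARS (-0.98 ± 0.30). HSP70 stood at 317, 241 and 265 CPM in Col-0 and at 153, 164 and 180 CPM in RNAi-MARS (-0.73 ± 0.25). The 21 touch and early stress genes had a median of -0.05, with 2 genes higher at such a p, against 4.08% of all features. Without library C of Col-0 the median was 0.41 with 8 such genes, against 6.85% of all features. The touch median was also above 0 without library A (0.08) or library C (0.03) of RNAi-MARS. Without library A of Col-0 3 genes were lower at such a p, against 2.33% of all features in that fit. RRTF1 is an early stress factor of the ERF family. It stood at 0.0346, 0.104 and 0.974 CPM in Col-0 and at 1.75, 2.88 and 3.14 CPM in RNAi-MARS (2.81 ± 0.88). Before ABA its log2 difference was 3.37 ± 1.499, without a call. At that time it stood at 0, 0.0693 and 0 CPM in Col-0 and at 0.627, 0.0519 and 0.195 CPM in RNAi-MARS, with overlapping groups. WRKY18, a defence factor, was at 1.24 ± 0.41 with overlapping groups. Of the 36 features called without library C and not with it, those with the largest positive differences in that fit at a mean of at least 5 CPM were HSP17.6II (3.22), AT1G15010 (2.39), the factor gene WRKY40 (2.35), PMZ (2.302) and the calmodulin-like CML41 (2.26). WRKY40 shows the arrangement, at 1.94, 2.701 and 33.8 CPM in Col-0 and at 7.77, 16.7 and 10.6 CPM in RNAi-MARS. With all 6 libraries its difference was -0.12 and it was not called. The largest negative ones were the pentatricopeptide repeat genes AT5G65820 (-0.93) and AT1G19720 (-0.74), PMI15 (-0.71), MCM2, a subunit of the replicative helicase (-0.64), and SS2 (-0.58). Why library C stood apart was not tested.

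DESeq2 and not edgeR called DYL1, a dormancy-associated gene, at 82.9, 96.6 and 111 CPM in Col-0 and 120, 167 and 202 CPM in RNAi-MARS (0.75), and CCL (0.50), the non-coding RNA AT4G04223 (0.83), LHY (0.73) and AT2G44130 (0.64) with it. On the lower side were NIR1 and GLU1, both of nitrogen assimilation. NIR1, nitrite reductase, stood at 253, 219 and 284 CPM in Col-0 and at 165, 134 and 202 CPM in RNAi-MARS (-0.59). GLU1, ferredoxin-dependent glutamate synthase, stood at 1016, 844 and 770 CPM in Col-0 and at 599, 481 and 651 CPM in RNAi-MARS (-0.60, adjusted p = 0.0196). All RNAi-MARS libraries were below all Col-0 libraries for both. The log2 differences of these genes are those of the DESeq2 fit. With them stood AT5G41900 (-0.68), the chloroplast chaperonin gene Cpn60beta2 (-0.66) and FUC95A (-0.59).

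The clock genes showed 3 higher and 3 lower members at an unadjusted p under 0.05 among 23 tested, against 4.08% and 4.74% of all features, and a median of -0.01. The lower count was 3 without library C of Col-0 and 0 or 1 without any other library, with 0 without library A of Col-0. Beside LHY, RVE1, a clock-controlled factor, stood at 14.3, 11.1 and 12.3 CPM in Col-0 and at 17.9, 19.5 and 18.7 CPM in RNAi-MARS (0.57 ± 0.15). Before ABA it stood at 171, 110 and 136 CPM in Col-0 and at 104, 91.9 and 99.1 CPM in RNAi-MARS (-0.50), so that the groups were apart in opposite directions at the 2 times. The difference between them had an unadjusted p of 0.000257 in edgeR, was not called there, and was called by DESeq2 (adjusted p = 0.0139). LHY had stood far higher before ABA, at 373 to 433 CPM in Col-0 and 367 to 430 CPM in RNAi-MARS, with a genotype difference of -0.04. CCA1, its partner, was at -0.01. The 3 lower genes were GI (-0.28), ZTL, a photoreceptor that marks clock proteins for degradation (-0.18), and the LNK1 gene AT5G64170 (-0.40). Since the hour of harvest is not given, ABA and time of day cannot be told apart for these genes.

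No feature was called in edgeR for a genotype difference after ABA that differed from that before ABA, while 1076 (4.79%) had an unadjusted p under 0.05. DESeq2 called 4, all with the larger value after ABA: RVE1 (1.08), the transporter gene ABCG27 (2.03), AT3G26510 (0.59) and AT5G17340. ABCG27 stood at 15.6, 16.8 and 11.2 CPM in Col-0 and at 24.8, 23.61 and 14.6 CPM in RNAi-MARS after ABA, and it was at -1.49 before ABA and at 0.54 after it. AT5G17340 rested on library B of RNAi-MARS, at 6.86 CPM against 0 to 0.516 CPM in the other 5 libraries after ABA.

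**Figure D4:**
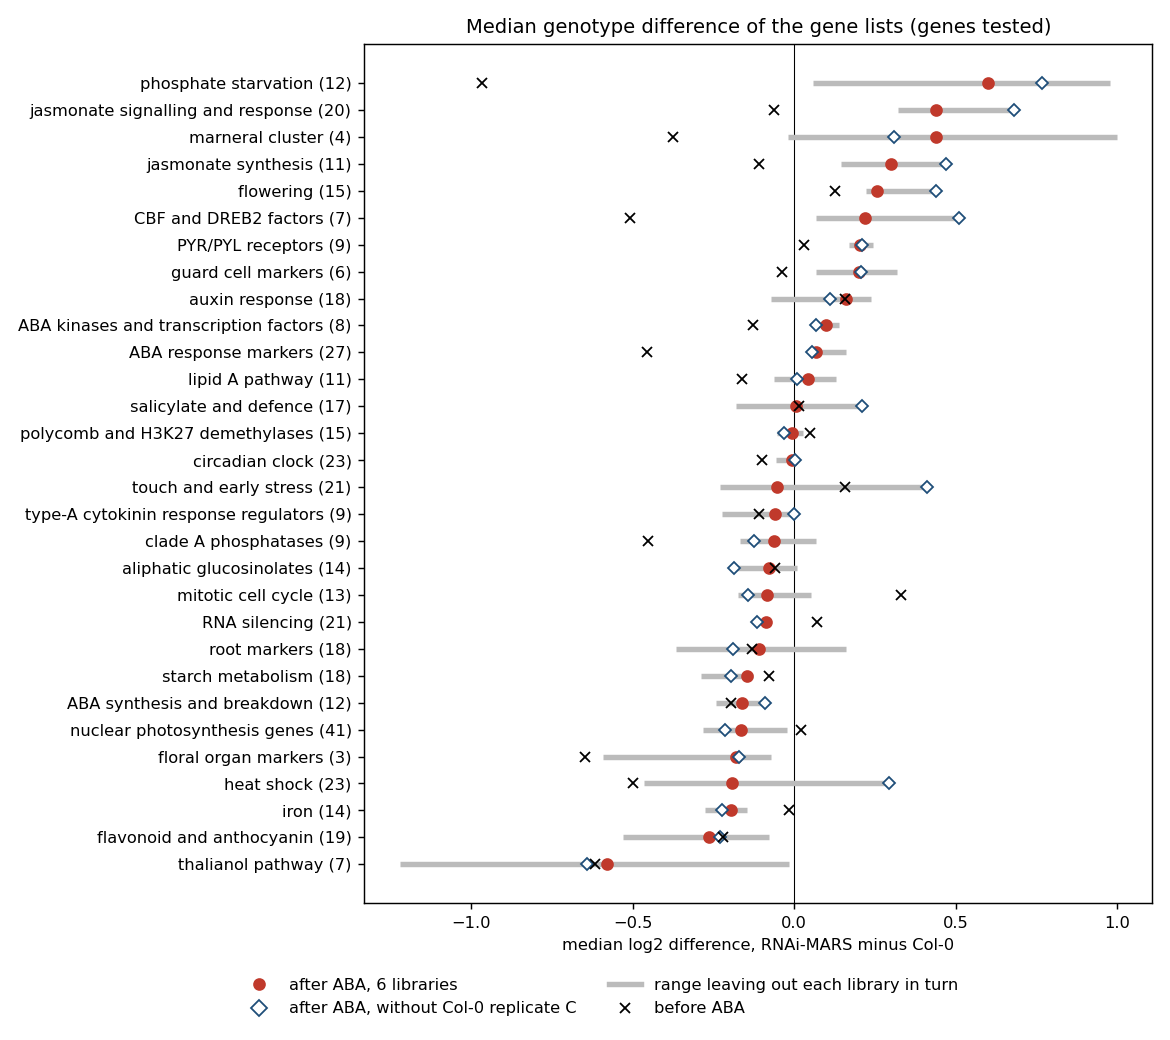
Median log2 difference between RNAi-MARS and Col-0 of each gene list with at least 3 tested genes, after ABA with all 6 libraries, after ABA without library C of Col-0, and before ABA, with a bar for the range over leaving out each of the 6 libraries. The medians of the heat shock and touch lists change sign without library C of Col-0, that of the touch list also without library A or C of RNAi-MARS, and the bar of the jasmonate signalling list runs from 0.32 to 0.68.

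Of 21 tested RNA silencing genes 0 were called, and NRPD1A, the large subunit of RNA polymerase IV, was the 1 member at an unadjusted p under 0.05, at 6.05, 5.45 and 5.53 CPM in Col-0 and 4.13, 4.86 and 3.53 CPM in RNAi-MARS (-0.44 ± 0.14). NRPE1 (NRPD1B), the large subunit of RNA polymerase V, was at -0.23 ± 0.11. The share of all features lower at such a p was 4.74%, and the list's median was -0.09. Without library C of Col-0 6 of its genes were lower at such a p, against 6.13% of all features, and without library B of RNAi-MARS 3 were, against 3.84%. The 15 tested polycomb and H3K27 demethylase genes had a median of -0.01 and a range of -0.23 to 0.11, with REF6, a demethylase, at -0.23 ± 0.10 and CLF, a methyltransferase, at -0.14 ± 0.08. Outside the segment the 6 other tested genes of the lipid A pathway were above 0, with LpxA, the first enzyme of the pathway, at 0.50 ± 0.17 and the others at 0.04 to 0.36. The 7 thalianol genes, a second triterpene cluster, were all below 0 with overlapping groups and a median of -0.58 that ran from -1.22 to -0.01 over leaving out each library. THAA2 (AT5G47950) was at -0.82 ± 0.44 and THAA1 (AT5G47980) at -0.92 ± 0.87.

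Flavonoid and anthocyanin genes had 4 of 19 tested members lower at an unadjusted p under 0.05, against 4.74% of all features, 0 calls and a median of -0.27. MYB12, a factor for flavonol synthesis, stood at 3.87, 1.403 and 1.68 CPM in Col-0 and at 0.894, 1.31 and 0.918 CPM in RNAi-MARS (-1.15 ± 0.38), and TT5, chalcone isomerase, was at -0.38 ± 0.16. Both were lower in every RNAi-MARS library. The count of 4 was 0, 6 and 3 without libraries A, B and C of Col-0. It was 4, 2 and 2 without libraries A, B and C of RNAi-MARS. Of all features 2.33% were lower at such a p without library A of Col-0 and 6.13% without library C of Col-0. The shares were 6.22% and 3.84% without libraries A and B of RNAi-MARS. In either direction 1681 of 22862 features had such a p without library B of Col-0, and 2467 of 22845 without library C of RNAi-MARS. Of 7 tested CBF and DREB2 factors, regulators of cold and drought genes, 1 was higher at such a p, against 4.08% of all features. It was CBF1 (1.74 ± 0.64, at under 1 CPM in every library), and DDF1 was at 1.33 ± 0.92. Without library C of Col-0 the count was 4, against 6.85% of all features in that fit.

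In the remaining lists 0 genes were called. IAA29 (0.84 ± 0.36) and AXR3, also named IAA17 (-0.38 ± 0.18), repressors of auxin response, had the smallest p of the auxin list. In it 1 of 18 tested genes was higher at an unadjusted p under 0.05, against 4.08% of all features. BTS, a ubiquitin ligase that limits iron uptake, was at -0.22 ± 0.10 and the transporter gene OPT3 at -0.25 ± 0.15. Of 14 iron genes 1 was lower at such a p, against 4.74% of all features. Among the 6 guard cell markers OZS1, the anion channel SLAC1, was at 0.46 ± 0.20 and FMA, the factor FAMA, at 0.27 ± 0.15. The guard cell list had 1 gene higher at such a p, against 4.08% of all features, and 3 without library C of RNAi-MARS. In that fit 2467 of 22845 features had such a p in either direction. The salicylate, cytokinin, glucosinolate, cell cycle, root and floral lists had 0 genes at such a p with all 6 libraries. Without library C of Col-0 3 salicylate genes were higher and 3 glucosinolate genes lower, against 6.85% and 6.13% of all features in that fit. Their members with the smallest p were NPR1 (-0.17) and PR5 (-0.44), ARR4 (-0.13) and ARR6 (-0.17), AT2G31790 (-0.25) and BAT5 (0.19), CYC1BAT (-0.24) and CYCA1;1 (-0.22), RSL4 (-0.87) and SHR (0.16), and SEP1 (-0.56) and SEP3 (-0.18). The second member by p was PSBQA (-0.35 ± 0.17) for photosynthesis and SPX3 (2.03 ± 1.24) for phosphate starvation.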

How the data were processed

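Polyadenylated RNA of whole seedlings was sequenced in 12 libraries, 3 for each genotype and time. The authors deposited estimated counts per gene, not normalized. Per the submitters' processing notes the tools were Trimmomatic 0.36, STAR 2.7.2a and featureCounts of Subread 1.6.5 on TAIR10, and their settings and strandedness are not given in the sources used. The deposited values are not all whole, at 5.31 to 7.60% of features per library after ABA, which bears on near-identical and overlapping genes. They were rounded to whole numbers.

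Features were filtered with filterByExpr (minimum count 10), scaled with TMM and fitted in R 4.3.3 with edgeR 4.0.16 (quasi-likelihood test, 1 coefficient for each of the 4 groups, 8 residual degrees of freedom, limma 3.58.1). P-values were two-sided, and adjusted p-values are Benjamini-Hochberg over all features tested. DESeq2 1.42.0, limma-voom, other scalings and filters, the 6 libraries alone, a replicate block and leaving out each library were alternatives. The labels do not say whether the letters pair samples. Deviations of same-letter libraries after ABA correlated at 0.034, -0.202 and -0.203, and those of different letters at -0.123 to 0.255. With 3 libraries a group these values cannot show whether a letter marks a shared culture or day. On simulated counts for 22300 genes the test of the genotypes after ABA found 28.8% of genes changed 1.5-fold, 62.7% of those changed 2-fold and 86.2% of those changed 4-fold, and made 4 false calls. The simulation used the fitted spread of each gene and no library that stood apart, so the shares found may be lower in the data. It also changed 66, 67 and 65 tested genes by 1.5-, 2- and 4-fold, against 20 features called in the data. More changed genes make the Benjamini-Hochberg threshold easier to pass, which may also make the shares too high.

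The members, the 31 gene lists (445 of 480 genes tested) and the naming rule were chosen with earlier results of these data known. The naming rule took the marneral genes, every called feature, the 10 next genes in each direction, the 2 smallest p of each list, and the 5 largest differences in each direction called by DESeq2 or without library C of Col-0. Further list members are named after their values were seen. Gene names, coordinates and sequences are from RefSeq, TAIR10.1, which held 37886 of 37898 nuclear identifiers. Copies were aligned with edlib 1.3.9.post1.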

Additional observations from a re-analysis of the deposited data

How the results depend on the processing

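The count of calls, 20, was 77 with DESeq2, 13 with the 6 libraries after ABA alone and 3 with the segment summed to 1 feature, and it ran from 13 (without library A of Col-0) to 55 (without library C) over leaving out each library. The other settings gave 14 to 20. With the replicate block it was 16, MARS was at -2.69 (adjusted p = 0.405) and the summed segment at -1.44 (adjusted p = 0.00078). The labels do not say whether the letters pair samples, so this is a check only. DESeq2 called 4 features for the difference between after and before, and edgeR 0 in every setting run. The summed segment was -1.44 with the 6 libraries after ABA alone, with an adjusted p of 0.078, and called in all other settings. It was bounded by calls in these same libraries, so its p-values are not support separate from those calls. MARS ran from -3.23 to -2.39 and was called in none of the settings that gave it an adjusted p. DESeq2 gave it no adjusted p. CYP705A12 changed sign to -0.25 without library B of Col-0, to -0.04 without library C of Col-0 and to -0.32 without library B of RNAi-MARS, and was highest, 0.87, without library A of Col-0. For the called features, the 3 protein-coding marneral genes and the next genes, 620 gene and setting pairs kept their direction and side of the threshold. Of the other pairs 56 lost the call, 21 gained it and 3 changed sign. Named genes outside this tally also changed sign: WRKY40 went from -0.12 to 2.35 without library C of Col-0. The cause of these shifts was not tested. With 3 libraries a group, changes of 1.5-fold were mostly missed in simulated counts, so genes not called are not shown to be equal.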
